A study of Mus musculus with 30 samples.

Results

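The genes described here set the entry of a B cell progenitor into the cell cycle. They are the D cyclins Ccnd1, Ccnd2 and Ccnd3, their kinases Cdk4 and Cdk6, the transcription factor gene Myc, and the CDK inhibitor genes Cdkn1a, Cdkn1b, Cdkn2c and Cdkn2d. The 10 members were picked by name, with earlier results of these data known. All 10 were found among the 24459 genes of the count table and were tested in every comparison. The mice were C57BL/6. Their Ikzf3 gene, which encodes the zinc finger protein Aiolos, carried the G158R substitution on no copy (Ikzf3+/+, WT), on 1 copy (Ikzf3+/m, het) or on both copies (Ikzf3m/m, homo). RNA was sequenced from bone marrow cells sorted as pre-pro B (B220+AA4.1+IgM-CD43+CD24-) or as the later pre-B stage (B220+AA4.1+IgM-CD43-CD24+), with 3 libraries in each of the 6 groups and 18 in all. The sources used here give no age, and nothing says that the libraries of a group came from separate animals, so p-values measure the spread between these libraries. Peak lists came from chromatin immunoprecipitation (ChIP) with antibodies to Aiolos and to its relative Ikaros, the product of Ikzf1, in WT and homo thymocytes and in WT and homo pre-B cells cultured on Tst-4 stroma with IL-7, SCF and Flt3L, 1 library each.

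A D-type cyclin binds CDK4 or CDK6, and the complex phosphorylates the retinoblastoma protein, which releases E2F factors and lets the cell pass from G1 into S phase. Proteins of the INK4 family, which include the products of Cdkn2c and Cdkn2d, bind CDK4 and CDK6 directly, whereas those of the CIP/KIP family, which include the products of Cdkn1a and Cdkn1b, act mainly on cyclin and CDK2 complexes. In B cell progenitors, signals from the IL-7 receptor and the pre-B cell receptor feed into this step, cyclin D3 is the D cyclin that pre-B cells need to expand, and Ikaros family factors are known to restrain Myc and the cycling of pre-B cells.

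The libraries held 1888871 to 9048055 gene counts. In pre-pro B cells the homo libraries were 1.48 times as deep as the WT libraries on average, and the shallowest library of all was replicate 3 of homo pre-B. That library stood apart from replicates 1 and 2 of its group, with a B lineage marker sum of 7802 against 4275 and 4149 CPM, a proliferation marker sum of 11000 against 6119 and 6024 CPM, and 901 CPM of Actb against 386 and 371 CPM. Where leaving it out ended a call of a member, that is given beside the result. Xist and Y-linked counts marked 6 libraries as XY, namely replicate 2 of het and replicates 1 and 3 of homo at both stages, and all 6 WT libraries as XX. The single XX homo library of a stage cannot separate sex from genotype, so its levels below are descriptions only. The stage labels held against the gate: in WT, Spn, which encodes CD43, averaged 430 CPM in pre-pro B and 159 CPM in pre-B cells, and Cd24a averaged 73.7 and 330 CPM. The B lineage marker sum over 12 genes was 817 to 1117 CPM in the pre-pro B libraries and 4094 to 7802 CPM in the pre-B libraries. The pre-pro B libraries also carried plasmacytoid dendritic cell markers, with a sum over 14 genes of 5190 to 8142 CPM. All levels below are TMM-normalised CPM, that is, counts scaled to library size. In sorted bulk cells, fewer cells of a type and less RNA per cell cannot be told apart.

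A gene was called at an adjusted p under 0.05 in edgeR's quasi-likelihood test with Benjamini-Hochberg adjustment over all genes tested. Between the stages most of the G1 genes were called, as were most genes: 7 of 10 in WT, against 64.3% of all genes tested, 8 of 10 in het, against 68.1%, and 9 of 10 in homo, against 69.1%. Homo differed from WT in 3 of 10 members in pre-pro B cells, against 22.4% of all genes, and in 4 of 10 in pre-B cells, against 15.9%. Without replicate 3 of homo, 2 members were called in pre-B cells, Ccnd2 and Cdk6, with 2097 genes called in all in place of 1811. With 10 genes, these counts are not read as particular to the members. Het differed from WT in 0 of 10 members at either stage, against 0.558% of all genes in pre-pro B and 6.18% in pre-B cells. At an unadjusted p under 0.05, edgeR gave 3 members at each stage, and DESeq2 also called 0 at both. All shares of genes called are at the adjusted p and do not apply to such counts. Counts at an unadjusted p, here and below, are not read as particular to the genes counted. The gene and marker lists used below were also chosen with earlier results of these data known. Counts of their genes called are therefore descriptions. Homo against het gave 0 of 10 in pre-pro B cells, against 0.0164% of all genes, with 4 members under an unadjusted p of 0.05 and 0 called by DESeq2. The same contrast gave 1 of 10 in pre-B cells, against 1.89%. The median log2 change of the members in homo against WT was 0.20 in pre-pro B and 0.03 in pre-B cells, where the median of all genes was 0.01 and 0.02. Groups that do not overlap were common among all genes. Homo and WT libraries did not overlap for 6 of 10 members in pre-pro B cells, against 46.5% of all genes, and for 7 in pre-B cells, against 42.6%. For het and WT this held for 1 member in pre-pro B cells, against 21.7%, and for 4 in pre-B cells, against 33.3%. For homo and het it held for 4 members at each stage, against 17.1% in pre-pro B and 15.5% in pre-B cells. The stages did not overlap for 7 members in WT, 8 in het and 7 in homo, against 79.8%, 69.5% and 72.7% of all genes. The contrasts of one stage share libraries, so their values stand side by side below and are not independent of each other.

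**Figure D1:**
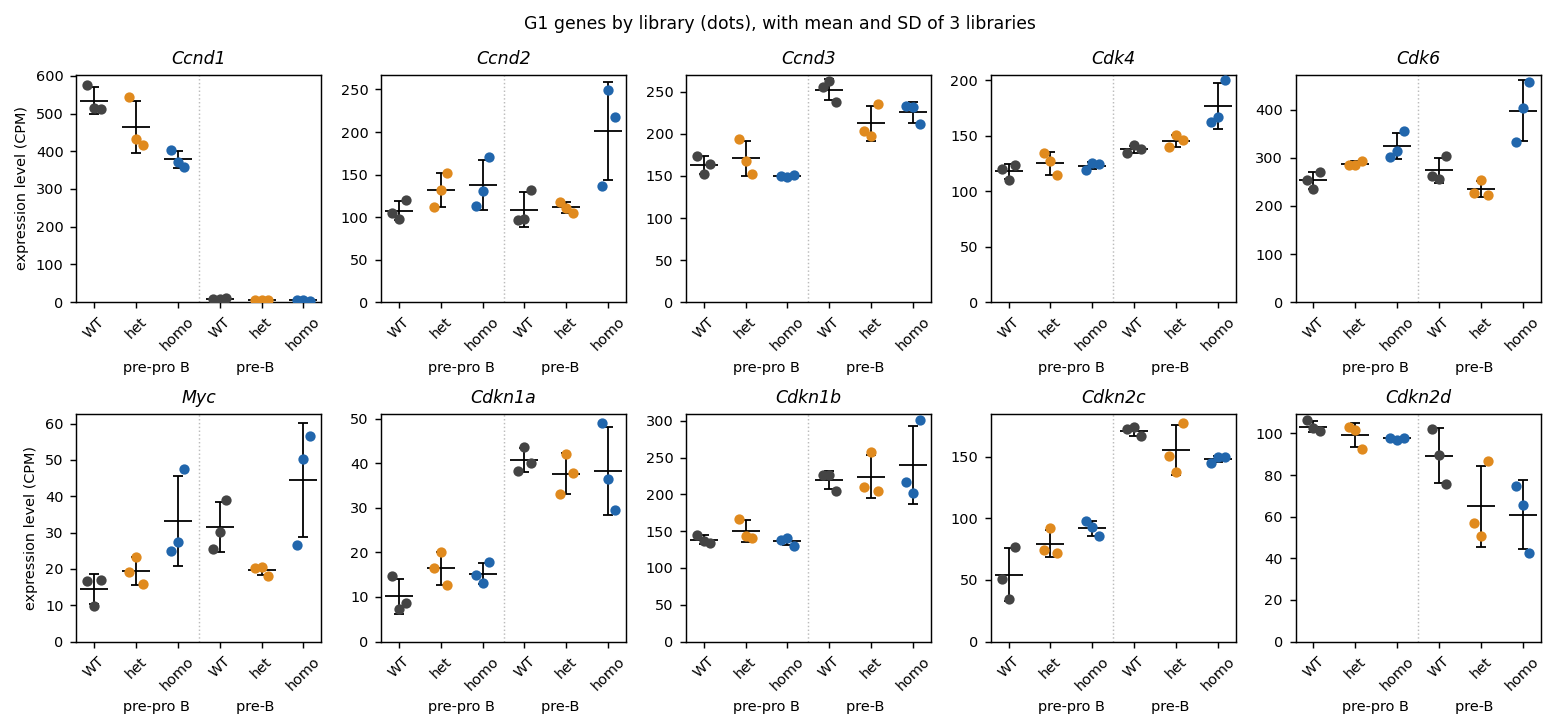
Expression level (CPM) of each of the 10 genes in the 18 libraries, by stage and genotype, with dots for libraries and bars for the mean and SD of 3 libraries. Ccnd1 drops from 359 to 575 CPM in pre-pro B cells to 3.01 to 10.6 CPM in pre-B cells, and in pre-B cells the homo libraries lie above all WT and het libraries for Cdk6, Ccnd2 and Cdk4.

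Among the D cyclins, Ccnd1 had the sharpest stage pattern. In pre-pro B cells its level was 575, 515 and 513 CPM in WT, 544, 434 and 417 CPM in het and 403, 372 and 359 CPM in homo. In pre-B cells it was 7.67, 9.49 and 10.6 CPM in WT, 7.01, 6.41 and 4.94 CPM in het and 5.55, 5.56 and 3.01 CPM in homo, the last from 5 counts. Every pre-pro B library thus lay far above every pre-B library, and at both stages the homo libraries lay below all WT libraries. From pre-pro B to pre-B cells Ccnd1 fell by 5.85 ± 0.16 (log2, SE) in WT (adjusted p = 2.84e-15), by 6.25 ± 0.17 in het and by 6.18 ± 0.18 in homo. Ccnd1 is best known from non-lymphoid cells, where growth factor signals induce it, and B lineage cells mainly use the other D cyclins. Its drop ran beside a drop of the plasmacytoid dendritic cell markers, of which 13 of 14 fell and none rose between the WT stages. There 64.3% of all genes were called. The sum of these markers was 6862 to 7728 CPM in WT pre-pro B and 1286 to 1382 CPM in WT pre-B cells. Sums of T lineage, NK and myeloid markers fell as well, while the B lineage sum rose. The T lineage sum over 12 genes was 708 to 788 CPM in WT pre-pro B and 53.9 to 54.6 CPM in WT pre-B cells. The NK and innate lymphoid sum was 135 to 147 and 12.9 to 13.8 CPM, and the myeloid sum 205 to 234 and 57.0 to 59.3 CPM. The part of any of these cells in the Ccnd1 level was not tested.

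Homo pre-pro B cells had less Ccnd1 than WT, with a log2 change of -0.51 ± 0.10 (adjusted p = 0.00559). The raw Ccnd1 counts behind these levels, 3061, 3092 and 3296 in WT and 3724, 3301 and 3300 in homo, grew 1.09-fold on average while library size grew 1.48-fold. Actb, the cytoskeletal actin gene, behaved alike, with 2335 to 2650 counts in all 9 pre-pro B libraries and a log2 change of -0.55 ± 0.20 (adjusted p = 0.0835). With library size as a covariate the Ccnd1 change was -0.27 (adjusted p = 0.0572), and with sex as a covariate it was -0.47 (adjusted p = 0.0546). Replicates 2 and 3 of het were about as deep as the homo libraries, and their 434 and 417 CPM lay above all 3 homo values, while homo against het was not called (-0.30 ± 0.10, adjusted p = 0.308). The single XX homo library, replicate 2, stood at 372 CPM, below all WT libraries. The plasmacytoid dendritic markers moved the same way, with 6 of 14 lower and none higher in homo, where 22.4% of all genes were called. Their sums were 5190 to 5398 CPM in homo against 6862 to 7728 CPM in WT, and no marker of that list was at 0. The T lineage sum was lower too, at 574 to 599 CPM in homo against 708 to 788 CPM in WT. NK and innate lymphoid and myeloid sums were higher in homo. The part of depth, sex and cell makeup in the Ccnd1 change was not tested further.

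**Figure D2:**
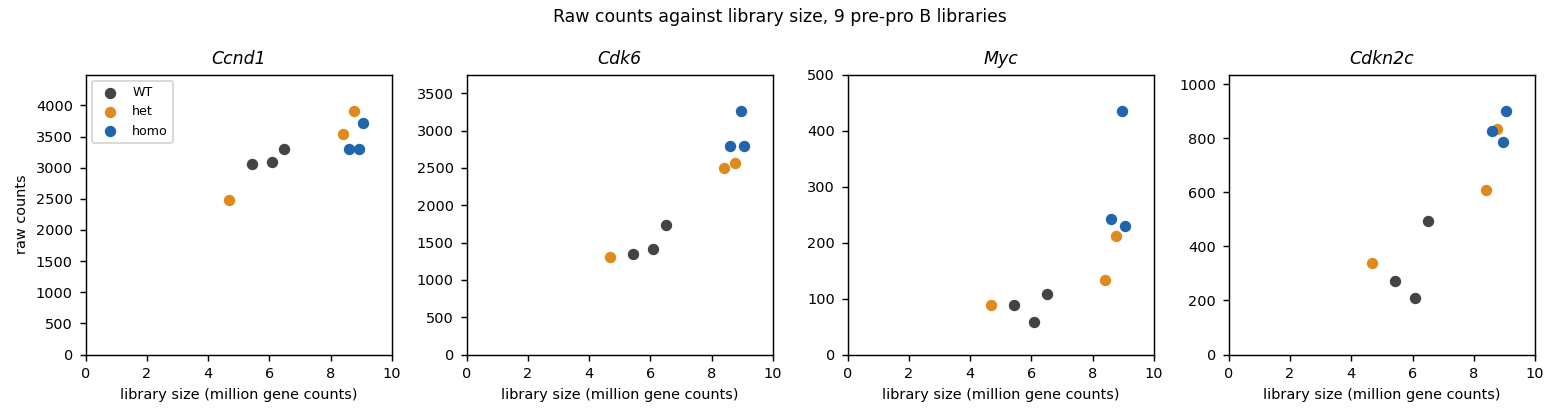
Raw counts of Ccnd1, Cdk6, Myc and Cdkn2c against library size in the 9 pre-pro B libraries. Ccnd1 counts lie between 2487 and 3910 and are about level in the deeper libraries, whereas the counts of Cdk6, Myc and Cdkn2c are higher in the homo than in the WT libraries by more than the 1.48-fold difference in mean depth.

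In pre-B cells Ccnd1 was again lower in homo than in WT (-0.86 ± 0.25, adjusted p = 0.0456), at 4.70 ± 1.47 against 9.27 ± 1.49 CPM (SD, n = 3). The het libraries lay between, below all WT libraries and overlapping homo (het against WT -0.61 ± 0.24, adjusted p = 0.20). Leaving out any 1 of the 6 libraries ended the homo call, with changes of -0.99 to -0.74 and adjusted p of 0.0621 to 0.165. It was also lost with sex (-0.82, adjusted p = 0.133), a replicate block (-0.91, adjusted p = 0.103) or no count filter (-0.87, adjusted p = 0.061).

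Ccnd2, the D cyclin induced by mitogen and cytokine signals in lymphocytes, differed little between the stages outside homo. Pre-pro B libraries held 105, 98.2 and 120 CPM in WT, 111, 132 and 152 CPM in het and 113, 131 and 171 CPM in homo. Pre-B libraries held 96.2, 97.3 and 132 CPM in WT, 118, 111 and 105 CPM in het and 137, 249 and 218 CPM in homo. The 3 homo pre-B libraries lay above all WT and het pre-B libraries, and the pre-pro B groups overlapped. Ccnd2 rose in homo against WT pre-B cells by 0.89 ± 0.21 (log2, adjusted p = 0.0171). It was not called in homo against WT pre-pro B cells (0.35 ± 0.17, adjusted p = 0.176), and the difference between the stages in this effect was not called either (0.52 ± 0.28, adjusted p = 0.233). Homo against het pre-B cells missed the threshold at 0.86 ± 0.21 (adjusted p = 0.0768), and DESeq2 called it (adjusted p = 0.00739). The call against WT was lost without WT replicate 1 (0.80, adjusted p = 0.0829), WT replicate 2 (0.82, adjusted p = 0.079) or homo replicate 2 (0.69, adjusted p = 0.0619). The XX library of homo, replicate 2, had the highest Ccnd2 level of all 18. With the stage, Ccnd2 gave 0.01 ± 0.20 in WT and -0.24 ± 0.19 in het and rose by 0.54 ± 0.19 in homo (adjusted p = 0.0207), where the stages overlapped. That call was lost without homo pre-pro B replicate 1 (0.40, adjusted p = 0.107), pre-pro B replicate 2 (0.49, adjusted p = 0.067) or pre-B replicate 2 (0.33, adjusted p = 0.161), and under cyclic loess (0.44, adjusted p = 0.064) or with library size (0.55, adjusted p = 0.0584).

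Ccnd3, the cyclin that expanding pre-B cells depend on, was the D cyclin that rose with the stage in every genotype. It had 152 to 173 CPM in WT, 152 to 194 CPM in het and 149 to 152 CPM in homo pre-pro B cells, and 238 to 263, 198 to 236 and 212 to 233 CPM in the corresponding pre-B cells. The pre-B libraries lay above the pre-pro B libraries of their own genotype without overlap. The rise was 0.63 ± 0.10 (log2) in WT (adjusted p = 1.71e-05), 0.31 ± 0.10 in het (adjusted p = 0.00768) and 0.59 ± 0.10 in homo (adjusted p = 3.46e-05). The het rise was lost without het pre-pro B replicate 3 (0.22, adjusted p = 0.0699) and under cyclic loess (0.19, adjusted p = 0.113). No genotype contrast of Ccnd3 was called: homo against WT gave -0.13 ± 0.08 in pre-pro B and -0.16 ± 0.11 in pre-B cells. Het against WT pre-B cells gave -0.25 ± 0.11 (adjusted p = 0.226), a change called with library size as covariate (adjusted p = 0.0161). The homo libraries lay below all WT libraries at both stages, and the het pre-B libraries below all WT pre-B libraries.

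Cdk4 and Cdk6 encode the catalytic partners of the D cyclins. Cdk4 lay within 110 to 134 CPM in the 9 pre-pro B libraries. In pre-B cells it stood at 135, 141 and 138 CPM in WT, 140, 151 and 146 CPM in het and 162, 167 and 201 CPM in homo. The homo pre-B libraries lay above all others, and WT and het overlapped. Cdk4 rose in homo against WT pre-B cells by 0.35 ± 0.10 (adjusted p = 0.0468), and not detectably in pre-pro B cells (0.05 ± 0.07, adjusted p = 0.616). Leaving out any 1 of the 6 libraries ended the pre-B call, with changes of 0.25 to 0.41 and adjusted p of 0.0521 to 0.166. The smallest of these changes came without homo replicate 3, the shallowest library, which also had the highest Cdk4 level. The call was lost as well with RLE factors (adjusted p = 0.0536), no count filter (0.102), sex (0.17) or a replicate block (0.113). With the stage, Cdk4 rose by 0.51 ± 0.09 in homo (adjusted p = 6.37e-05), by 0.23 ± 0.09 in WT (adjusted p = 0.0317) and by 0.22 ± 0.09 in het (adjusted p = 0.0345). The WT call was lost without any 1 library other than pre-pro B replicate 3, at 0.18 to 0.24 and adjusted p of 0.0503 to 0.14, and with DESeq2 (0.19, adjusted p = 0.0691), RLE factors, cyclic loess, no count filter or the block. The het call was lost without pre-pro B replicate 2 or 3 or pre-B replicate 2 or 3, at 0.14 to 0.22 and adjusted p of 0.0599 to 0.193, and with RLE factors (0.20, adjusted p = 0.0685), cyclic loess, no count filter or the block.

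Cdk4 is a long known target of MYC, which binds the E box CACGTG together with its partner MAX, and its promoter is shown because it holds that motif 4 times, where 7.15% of 32851 promoters of the same length hold it at all and 0.0244% hold it 4 times or more. The motif reads the same on both strands. The window runs from 250 bases before to 50 bases after the start, at chr10:127063285-127063584 on the plus strand (GRCm38.p6, from RefSeq), with the E boxes in capitals.

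Cdk4: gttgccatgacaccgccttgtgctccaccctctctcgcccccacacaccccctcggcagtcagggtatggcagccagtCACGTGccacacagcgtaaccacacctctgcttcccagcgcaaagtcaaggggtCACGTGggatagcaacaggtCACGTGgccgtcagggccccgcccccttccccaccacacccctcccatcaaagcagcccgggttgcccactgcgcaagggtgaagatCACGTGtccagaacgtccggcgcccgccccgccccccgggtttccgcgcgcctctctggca

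No Ikaros or Aiolos peak overlapped this window, and the nearest Ikaros peak lay 32.6 kb from the gene, in homo thymocytes. Of the 10 promoters of the 7 members in the RefSeq table, 3 held a CACGTG, 1 each of Cdk4, Cdk6 and Cdkn2c. A match is a description of the letters and shows no binding.

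Cdk6 was the member called in most genotype contrasts. Pre-pro B libraries had a Cdk6 level of 254, 235 and 271 CPM in WT, 286, 284 and 294 CPM in het and 302, 315 and 355 CPM in homo. Pre-B libraries had 262, 256 and 303 CPM in WT, 227, 253 and 223 CPM in het and 333, 403 and 458 CPM in homo. In pre-pro B cells the 3 genotypes lay one above the other without overlap, and in pre-B cells het lay below WT and homo above both. Cdk6 rose in homo against WT by 0.34 ± 0.07 in pre-pro B cells (log2, adjusted p = 0.0066) and by 0.54 ± 0.14 in pre-B cells (adjusted p = 0.0239), and in homo against het pre-B cells by 0.77 ± 0.14 (adjusted p = 0.021). The effect did not differ detectably between the stages (0.18 ± 0.16, adjusted p = 0.502). In pre-pro B cells the call held without any 1 library and was lost with library size (0.33, adjusted p = 0.0954), sex (0.33, adjusted p = 0.0525) or all 18 libraries in the fit (0.36, adjusted p = 0.0514). In pre-B cells the call against WT was lost without WT replicate 1 (0.50, adjusted p = 0.106), WT replicate 2 (0.49, adjusted p = 0.115) or homo replicate 2 (0.52, adjusted p = 0.0592), with a replicate block (0.53, adjusted p = 0.0559) or with sex (0.50, adjusted p = 0.0781), and the call against het without het replicate 1 (0.75, adjusted p = 0.114), het replicate 3 (0.73, adjusted p = 0.0714) or homo replicate 2 (0.76, adjusted p = 0.08) or with the block (0.76, adjusted p = 0.0754). The XX homo library stood at 315 CPM in pre-pro B and 403 CPM in pre-B cells, above all WT libraries of its stage. In homo pre-B cells, beside the higher Cdk6, Ccnd2 and Cdk4, 2 of 16 proliferation markers were called higher than in WT and none lower. In this contrast 15.9% of all genes were called. The proliferation marker sums were 5382 to 5747 CPM in WT and 6119, 6024 and 11000 CPM in homo replicates 1, 2 and 3. Without replicate 3 the change against WT was 0.43 for Cdk6 (adjusted p = 0.0233), 0.83 for Ccnd2 (adjusted p = 0.0213) and 0.25 for Cdk4 (adjusted p = 0.0565), and the Cdk6 change against het was 0.66 (adjusted p = 0.0111). The NK and innate lymphoid sum over 14 markers was 12.9 to 13.8 CPM in WT, where Eomes, Gzma, Gzmb, Klrk1 and Ncr1 were at 0, and 32.0 to 40.9 CPM in homo, with 2 of 3 tested markers higher. The myeloid sum was 57.0 to 59.3 CPM in WT and 119 to 153 CPM in homo, with 1 of 3 tested markers higher. The part of such cells in these changes was not tested.

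With the stage, Cdk6 did not change detectably in WT (0.11 ± 0.11, adjusted p = 0.386). It fell by 0.30 ± 0.11 in het (adjusted p = 0.0237), a call lost without pre-B replicate 1 or 3 (-0.28 and -0.26). It rose by 0.29 ± 0.11 in homo (adjusted p = 0.0264), with overlapping libraries. Under cyclic loess normalisation, which also adjusts for abundance, the homo value was 0.06 (adjusted p = 0.58), and without homo pre-pro B replicates 1 or 2 or pre-B replicates 2 or 3 it was 0.19 to 0.28 and not called. With library size it was 0.13 (adjusted p = 0.312).

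Myc, the transcription factor gene that drives growth and entry into S phase, was low at both stages. It had 16.7, 9.66 and 16.8 CPM in WT, 19.2, 23.4 and 15.8 CPM in het and 24.9, 27.4 and 47.4 CPM in homo pre-pro B cells. Pre-B libraries had 25.4, 30.3 and 38.8 CPM in WT, 20.3, 20.5 and 18.2 CPM in het and 26.6, 50.2 and 56.5 CPM in homo. All homo pre-pro B libraries lay above WT and het. In pre-B cells the het libraries lay below both other groups, and WT and homo overlapped. Myc rose in homo against WT pre-pro B cells by 1.20 ± 0.31 (log2, adjusted p = 0.0286). In pre-B cells homo against WT gave 0.46 ± 0.26 (adjusted p = 0.278), het against WT -0.69 ± 0.27 (adjusted p = 0.19) and homo against het 1.16 ± 0.27 (adjusted p = 0.0655), the last called by DESeq2 (adjusted p = 0.00266). The pre-pro B call was lost without WT replicate 1 (1.31, adjusted p = 0.0702), WT replicate 2 (0.97, adjusted p = 0.0853) or homo replicate 2 (1.32, adjusted p = 0.0502), without a count filter (1.20, adjusted p = 0.0755), with library size (1.16, adjusted p = 0.259) and with sex (0.91, adjusted p = 0.169). The value without homo replicate 3, the highest library, was 0.85 (adjusted p = 0.0394). The XX homo library had 27.4 CPM, above the WT range.

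Between the stages Myc rose in WT by 1.13 ± 0.30 (adjusted p = 0.0031). The values in het, 0.00 ± 0.30, and in homo, 0.37 ± 0.28, were not called. The difference of the stage change from WT was not called for het (-1.13 ± 0.42, adjusted p = 0.149) or for homo (-0.76 ± 0.41, adjusted p = 0.242). The homo stage value was called without pre-pro B replicate 3 (0.71, adjusted p = 0.0349) or pre-B replicate 1 (0.66, adjusted p = 0.0407).

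**Figure D3:**
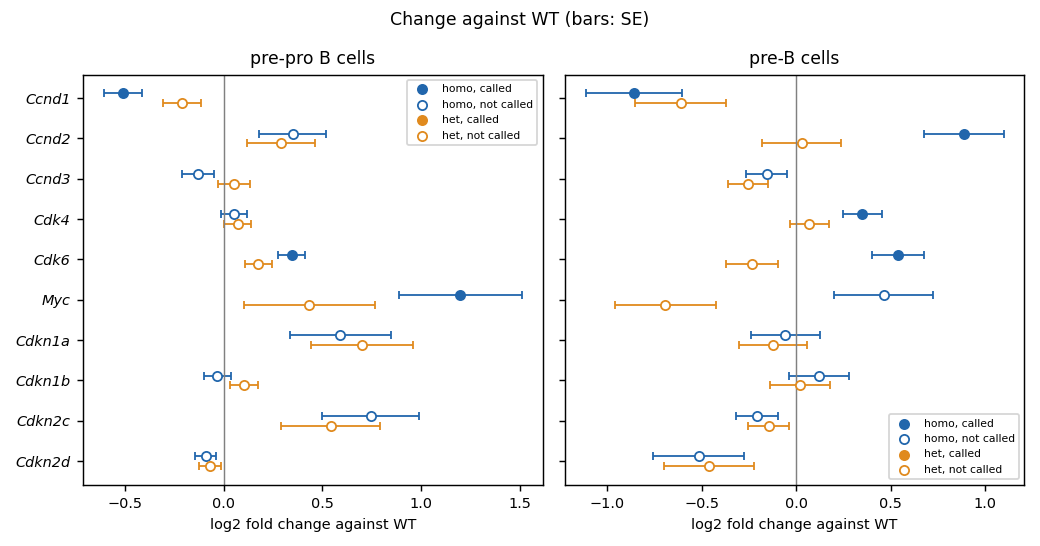
Log2 fold change of homo and het against WT for each gene, in pre-pro B cells (left) and pre-B cells (right), with SE bars and filled dots for called changes. Cdk6 is called higher and Ccnd1 lower in homo at both stages, Myc is called at 1.20 in pre-pro B cells and Ccnd2 at 0.89 in pre-B cells, and no het change is called.

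Of the CIP/KIP inhibitor genes, Cdkn1a encodes p21, a target of p53, and Cdkn1b encodes p27, which FOXO factors induce. Cdkn1a was at 14.6, 7.33 and 8.56 CPM in WT, 16.4, 20.2 and 12.7 CPM in het and 14.8, 13.1 and 17.9 CPM in homo pre-pro B cells, and at 38.4 to 43.7 CPM in WT, 33.0 to 42.2 CPM in het and 29.4 to 49.0 CPM in homo pre-B cells. The stages did not overlap in any genotype, and the genotypes overlapped at both stages. Cdkn1a rose with the stage by 2.01 ± 0.23 in WT (adjusted p = 6.39e-07), 1.19 ± 0.22 in het (adjusted p = 0.000124) and 1.37 ± 0.22 in homo (adjusted p = 2.9e-05). The smaller rise in the mutants was not called against WT (het -0.82 ± 0.32, adjusted p = 0.169, homo -0.64 ± 0.32, adjusted p = 0.206), and both differences were called without WT pre-pro B replicate 1 (-1.16, adjusted p = 0.0421, and -0.99, adjusted p = 0.0477). That library had the highest Cdkn1a level of its group. Without it, homo against WT in pre-pro B cells was also called (0.93, adjusted p = 0.0352, against 0.59 ± 0.26 and adjusted p = 0.119 with it).

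Cdkn1b was at 130 to 167 CPM in the 9 pre-pro B libraries and at 202 to 301 CPM in the 9 pre-B libraries, without overlap between the stages. It rose by 0.66 ± 0.13 (log2) in WT (adjusted p = 0.000188), 0.57 ± 0.13 in het (adjusted p = 0.000664) and 0.80 ± 0.13 in homo (adjusted p = 2.89e-05), and no genotype contrast was called (homo against WT -0.03 ± 0.07 in pre-pro B and 0.12 ± 0.16 in pre-B cells). Its promoter is shown because a deposited Ikaros peak overlapped it in homo cells. The window lies at chr6:134920151-134920450 on the plus strand (GRCm38.p6, from RefSeq), and capitals would mark GGGAA or its reverse complement TTCCC, the core that Ikaros family zinc fingers recognise.

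Cdkn1b: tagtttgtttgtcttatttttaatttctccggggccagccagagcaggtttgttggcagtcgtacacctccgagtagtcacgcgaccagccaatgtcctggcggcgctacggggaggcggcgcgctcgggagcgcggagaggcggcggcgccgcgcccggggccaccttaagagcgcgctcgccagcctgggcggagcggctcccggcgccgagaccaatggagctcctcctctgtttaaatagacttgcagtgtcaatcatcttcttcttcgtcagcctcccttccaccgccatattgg

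The window held no copy of that core, which 62.7% of the 32851 promoters hold. The peak over it was listed in homo cultured pre-B cells (authors' fold 3.97, at chr6:134920303-134920535) and in homo thymocytes (6.12, at chr6:134920121-134920712), and in neither WT list. The strongest Ikaros peak near Cdkn1b in pre-B cells lay 23.8 kb before its start, with a fold of 14.7 in WT and 15.9 in homo.

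Cdkn2c and Cdkn2d encode the INK4 inhibitors p18 and p19. Cdkn2c was the member whose genotype effect differed between the stages. It had 51.1, 34.6 and 77.1 CPM in WT, 74.4, 92.4 and 71.9 CPM in het and 97.5, 93.2 and 85.6 CPM in homo pre-pro B cells. The pre-B values were 172, 174 and 167 CPM in WT, 151, 138 and 178 CPM in het and 145, 150 and 150 CPM in homo. The homo libraries thus lay above all WT libraries in pre-pro B cells and below all WT libraries in pre-B cells. Neither contrast was called within its stage: homo against WT was 0.75 ± 0.25 in pre-pro B (log2, adjusted p = 0.066) and -0.21 ± 0.11 in pre-B cells (adjusted p = 0.244). The difference between them was called, at -0.97 ± 0.26 (adjusted p = 0.0174), the only such call among 10 members against 14.5% of all genes. For het, 0 of 10 members were called in the same test, against 5.65% of all genes (Cdkn2c -0.69 ± 0.26, adjusted p = 0.154; DESeq2 also called 0). Cdkn2c rose with the stage by 1.65 ± 0.19 in WT (adjusted p = 5.1e-07), 0.97 ± 0.18 in het (adjusted p = 0.000164) and 0.69 ± 0.18 in homo (adjusted p = 0.00312).

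The Cdkn2c difference between the stages was called in every alternative run, with values of -1.32 to -0.73 and adjusted p of 0.00029 to 0.0495. With WT replicate 3, the highest WT library, the pre-pro B contrasts against WT were smaller and not called. Without it homo against WT was 1.09 (adjusted p = 0.0032) and het against WT 0.89 (adjusted p = 0.0207). Among 9651 genes with at least 10 CPM, the ones most like Cdkn2c over the 18 libraries, after centring within each stage, were Ttf2 (Pearson r = 0.96), Cdc20 (0.95), the activator of the anaphase-promoting complex, and Gtse1 (0.94), a gene of G2 and mitosis. These r are descriptions over libraries that share genotype and depth. Proliferation markers moved beside Cdkn2c in pre-pro B cells, where 14 of 16 were higher and none lower in homo, against 22.4% of all genes called. Their sums were 1321 to 2143 CPM in WT and 2873 to 2995 CPM in homo. WT replicate 3 held the highest of the WT sums, and the part of cycling cells in the Cdkn2c level was not tested.

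The Cdkn2c promoter shown is the one that a homo thymocyte Ikaros peak overlapped (authors' fold 4.77, at chr4:109665996-109667078). The window lies at chr4:109666707-109667006 on the minus strand (GRCm38.p6, from RefSeq). Its single copy of the core, read as TTCCC, is in capitals, and it holds no CACGTG. The CACGTG counted above for Cdkn2c lies in another promoter of the gene, at chr4:109665323-109665622, which no listed peak overlapped.

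Cdkn2c: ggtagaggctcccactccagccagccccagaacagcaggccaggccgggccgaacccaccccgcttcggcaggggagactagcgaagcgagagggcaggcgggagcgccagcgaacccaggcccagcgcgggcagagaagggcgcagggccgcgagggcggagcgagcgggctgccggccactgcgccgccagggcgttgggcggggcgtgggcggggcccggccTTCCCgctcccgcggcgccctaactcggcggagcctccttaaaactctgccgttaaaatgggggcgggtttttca

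Cdkn2d lay within 92.7 to 106 CPM in all 9 pre-pro B libraries. In pre-B cells it spread further, at 102, 89.7 and 75.9 CPM in WT, 57.2, 50.6 and 87.0 CPM in het and 74.8, 65.6 and 42.7 CPM in homo. The homo pre-B libraries lay below WT, and het overlapped both. The stage change was -0.21 ± 0.17 in WT and not called (adjusted p = 0.301), and Cdkn2d fell by 0.60 ± 0.18 in het (adjusted p = 0.006) and by 0.63 ± 0.18 in homo (adjusted p = 0.00479), a call lost with library size (-0.35, adjusted p = 0.108). The difference of the stage change from WT was not called in het (-0.39 ± 0.25) or homo (-0.42 ± 0.25, adjusted p = 0.297), nor was homo against WT in pre-B cells (-0.52 ± 0.24, adjusted p = 0.189).

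**Figure D4:**
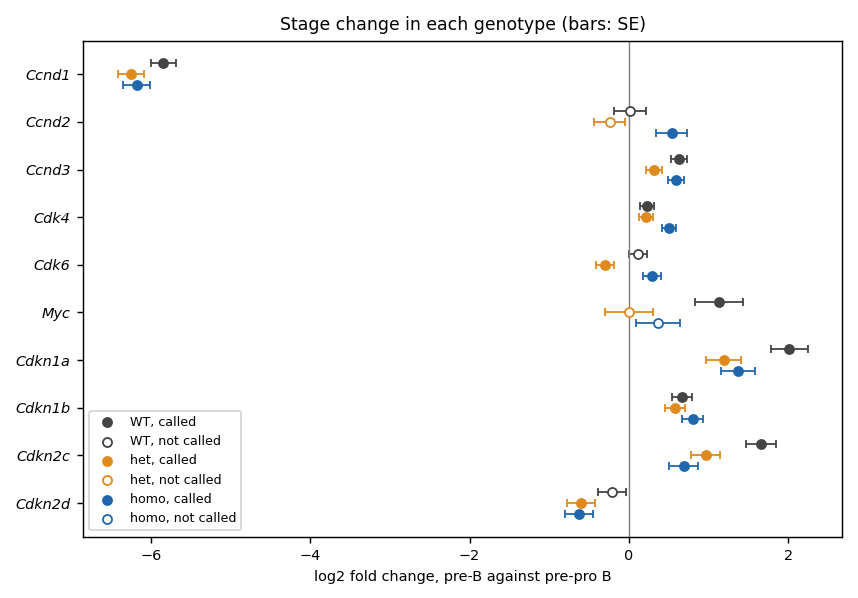
Log2 fold change of pre-B against pre-pro B cells for each gene in WT, het and homo, with SE bars and filled dots for called changes. Ccnd1 lies near -6 in all genotypes, and Cdkn1a, Cdkn1b, Cdkn2c and Ccnd3 lie to the right of 0 in all; the Cdkn2c rise is 1.65 in WT and 0.69 in homo.

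Several members moved together within the stages. Over the 18 libraries, with each stage centred on its own mean, Ccnd2 and Cdk6 had the highest r among the member pairs (0.88), followed by Cdk6 and Myc (0.85), Cdk4 and Cdk6 (0.77) and Ccnd2 and Myc (0.73). Cdk6 was also the gene most like Ccnd2 among all 9651. The genes most like Cdk6 were Gbp7 (0.93), an interferon-induced guanylate-binding protein gene, Hoxa9 (0.92), a homeobox gene of early progenitors, and Adgrg3 (0.90), and Hoxa9 and Adgrg3 came next after Cdk6 for Ccnd2 as well (0.87 and 0.88). Myc was most like Anxa1 (0.89), the annexin A1 gene. Ccnd1 had its lowest r among the members with Cdk4 (-0.71). All of these share the libraries' genotype and depth and are given as descriptions.

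Most genes of the lists downstream of the D cyclins were higher in homo than in WT pre-pro B cells. The RB and E2F list had 9 of 13 genes higher and 1 lower in homo pre-pro B cells, with a median log2 change of 0.35, and E2f7 and E2f8, the atypical repressor E2Fs, rose by 1.20 ± 0.32 and 1.16 ± 0.26. The cyclin E and CDK2 list had 8 of 10 higher and none lower, with a median of 0.69, led by Ccne1, the G1/S cyclin (1.30 ± 0.20, adjusted p = 0.00294), and Ccna2, the S phase cyclin (1.28 ± 0.35, adjusted p = 0.0392). The median of all genes was 0.01, and 22.4% of all genes were called in this contrast. The homo libraries were deeper here, and most were XY where all WT libraries were XX. With library size as covariate the genes called in this contrast fell from 2730 to 213, and they also fell with sex as covariate. The gene and marker lists were not counted under either covariate. In homo pre-B cells the same lists had 1 of 13 and 0 of 10 genes higher and none lower, where 4 of the 10 cyclin E genes had an unadjusted p under 0.05, and 15.9% of all genes were called. Between the WT stages, where 64.3% of all genes were called, 10 of 13 and 9 of 10 rose, with E2f2, an activator E2F, at 3.74 ± 0.19. In pre-pro B cells NK and innate lymphoid markers moved with these lists: 12 of 14 were higher and none lower in homo, with sums of 135 to 147 CPM in WT and 313 to 515 CPM in homo. Myeloid markers did so too, with 8 of 12 higher and sums of 205 to 234 CPM in WT and 298 to 373 CPM in homo, and with Cebpe at 0 in WT. Their part in the changes was not tested.

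Genes around Myc moved in both directions. Of 11 partners and antagonists of MYC, 2 were higher and 3 lower in homo pre-pro B cells, with a median of -0.05. In that contrast 22.4% of all genes were called. Mxd3, a MAX-binding antagonist expressed in dividing cells, rose by 1.63 ± 0.36 (adjusted p = 0.0185), and Mycl, which encodes L-MYC, fell by 0.25 ± 0.06. Of 16 MYC target genes of ribosome building and metabolism, 1 was higher in the same contrast, against the same 22.4% of all genes. It was Polr1b (0.26 ± 0.07), a subunit gene of RNA polymerase I, and the median of the targets was -0.02. In homo pre-B cells 0 of 16 targets were called, against 15.9% of all genes, with 3 under an unadjusted p of 0.05 and a median of 0.15. Between the WT stages, where Myc rose, 4 of 16 targets rose and 4 fell. The share of all genes called there was 64.3%. Mycl fell by 7.46 ± 0.18, and Mycn, which encodes N-MYC, rose by 2.39 ± 0.38 to 5.08 CPM.

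Of the 3 CDK inhibitor genes outside the 10 members, Cdkn1c and Cdkn2a had enough counts to test in pre-B cells, and both were higher in homo than in WT, where 15.9% of all genes were called. In het against WT 1 of the 2 was called, Cdkn1c, against 6.18% of all genes. Cdkn1c, which encodes the third CIP/KIP protein p57, stood at 5.38 ± 0.42 CPM in WT, 13.1 ± 1.95 CPM in het and 15.8 ± 2.43 CPM in homo (SD, n = 3). It rose by 1.54 ± 0.20 in homo (log2, adjusted p = 0.000675) and by 1.26 ± 0.20 in het (adjusted p = 0.00516). Cdkn2a, the locus of the INK4a and ARF proteins, was below the level set for named genes and is given after its value was seen: it stood at 0.709 ± 0.642 CPM in WT, 0.897 ± 0.142 CPM in het and 4.04 ± 1.58 CPM in homo pre-B cells. It rose by 2.58 ± 0.49 in homo (adjusted p = 0.0057), and het against WT was not called (0.34 ± 0.62, adjusted p = 0.791).

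Other targets of p53, and FOXO genes with their targets, had calls in both directions in homo pre-B cells. Of 11 other p53 targets tested in pre-B cells, homo had 1 higher and 2 lower than WT, where 15.9% of all genes were called. These were Pmaip1, a pro-apoptotic BH3-only gene (1.49 ± 0.20), Btg2, an antiproliferative gene (-1.53 ± 0.17), and Zmat3 (-2.45 ± 0.41). Het had Btg2 (-0.96 ± 0.17) and Zmat3 (-1.38 ± 0.34) lower, where 6.18% of all genes were called. Of 10 genes of FOXO factors and their pre-B targets, homo pre-B cells had Foxo1 higher (0.46 ± 0.12, adjusted p = 0.0284), and Pik3ip1, a PI3K inhibitor gene, and Klf2 lower (-1.08 ± 0.25 and -0.50 ± 0.12). Het pre-B cells had Bcl6 of this list higher than WT (0.65 ± 0.15, adjusted p = 0.0283). In homo pre-pro B cells, where 22.4% of all genes were called, 1 p53 target was higher and 1 lower, Pmaip1 (0.86 ± 0.23) and Btg2 (-0.47 ± 0.12). There 2 of the 10 FOXO genes were lower, Klf2 (-0.40 ± 0.09) and Foxo3 (-0.37 ± 0.09). Between the WT stages, where 64.3% of all genes were called and Cdkn1b rose, genes of the FOXO list moved in both directions. Foxo1 (1.51 ± 0.10) and Irs2 (1.35 ± 0.25) rose, and Foxo3 (-0.92 ± 0.14) and Pik3ip1 (-0.61 ± 0.21) fell. The part of FOXO factors in the Cdkn1b rise was not tested.

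Deposited Ikaros peaks lay within the gene body or 10 kb of several members. In WT cultured pre-B cells 2 of 10 members had one, Ccnd1 and Cdk6, against 11.2% of 21900 protein-coding genes. In homo cultured pre-B cells 6 had one, Ccnd1, Ccnd3, Cdk6, Myc, Cdkn1b and Cdkn2d, against 24.0%. In thymocytes 4 members had one in WT, Ccnd3, Cdk6, Cdkn1a and Cdkn2d, against 11.9%, and 7 in homo, all but Ccnd1, Ccnd2 and Cdk4, against 30.7%. The homo lists were longer for all genes, with 8609 against 3683 regions in pre-B cells and 8221 against 3572 in thymocytes, and there was 1 library per list, so no test was made between the genotypes. The shares were not matched for gene length or expression, and Cdk6 spans 190005 and Ccnd3 94639 bases. With 10 genes, these peak counts are not read as particular to the members. With regions of a deposited −log10 q-value of at least 5 alone, the homo pre-B count was 2, Ccnd1 and Cdk6. Both also had such a region in the WT pre-B list, with values of 7.56 at Ccnd1 and up to 23.6 at Cdk6. The shares of genes above are for all regions and do not apply at this threshold. Aiolos lists held 431 and 24 regions in WT and homo pre-B cells and 25 and 184 in WT and homo thymocytes, and none lay near a member, against 0.945%, 0.0594%, 0.0502% and 0.502% of genes.

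At Cdk6 the lists of both genotypes in pre-B cells held the same 3 places inside the gene, 27.7, 149.3 and 170.9 kb from its start in WT. In WT they lay at chr5:3368565-3368942, chr5:3489967-3490626 and chr5:3511751-3512017 (mm10), with the authors' folds of 4.57, 8.16 and 4.13, and in homo the folds were 8.09, 11.6 and 6.19. The annotation used here gives no exons, so exonic and intronic places were not told apart. Only the last of the 3 places was listed in WT thymocytes, with a fold of 4.66.

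Ccnd3 had its listed peaks mainly in thymocytes, with 8 peaks inside the gene in WT thymocytes and 10 in homo thymocytes, but none within 10 kb in WT pre-B cells and 1 in homo pre-B cells (fold 3.24). The strongest, 28.9 kb from the start at chr17:47533749-47534239, had a fold of 14.0 in WT thymocytes. The nearest peak in WT pre-B cells lay 31.6 kb beyond the gene.

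At Ccnd1 a peak lay 5.6 kb beyond the upper end of the gene in pre-B cells of both genotypes, with folds of 5.19 and 5.28, and none was listed within 50 kb in thymocytes. Myc had a peak across its lower end in homo cells of both types (folds 3.50 and 3.40) and none within 50 kb in WT. Cdkn2d had a peak at its 3′ end in homo pre-B cells (4.08) and in WT and homo thymocytes (4.90 and 7.99). Ccnd2 had no listed peak within 50 kb in any list.

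**Figure D5:**
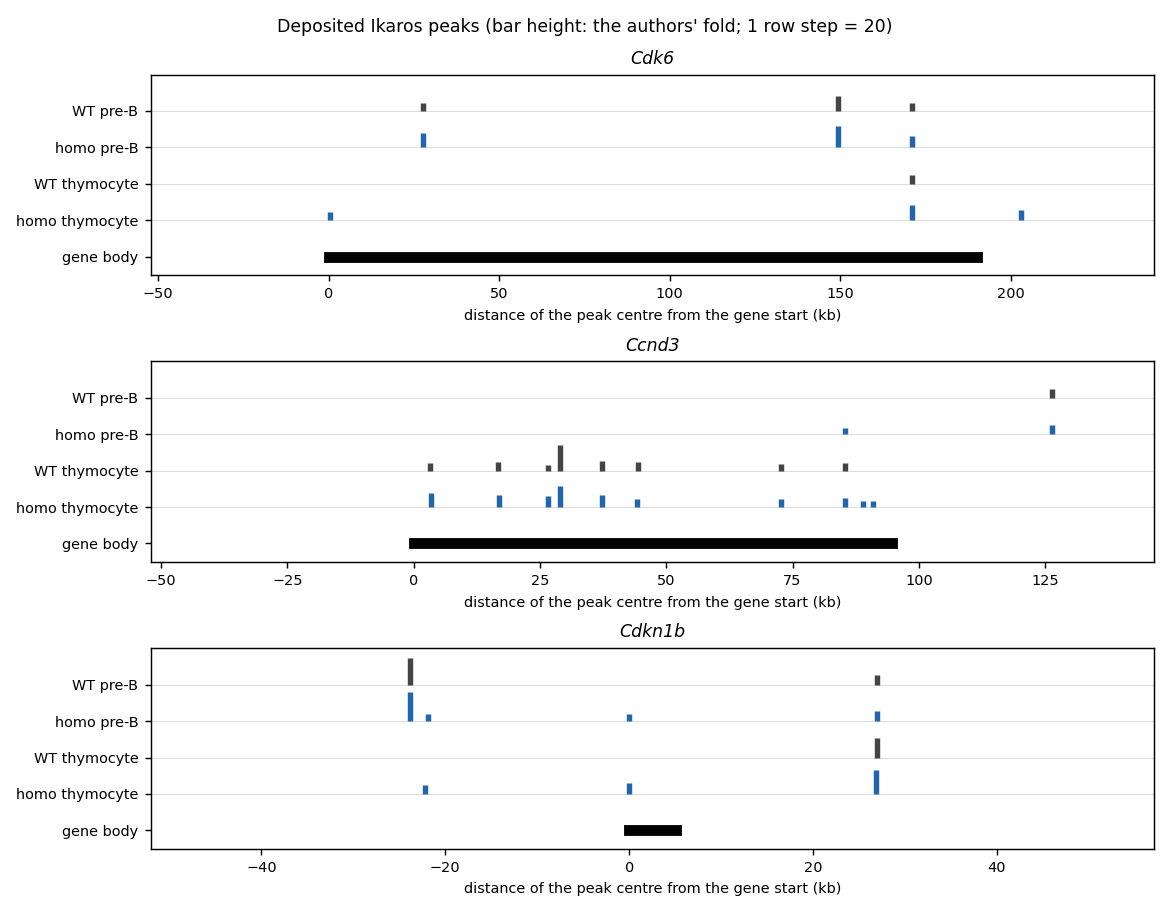
Deposited Ikaros peaks within 50 kb of Cdk6, Ccnd3 and Cdkn1b, placed by the distance of the peak centre from the gene start (kb), with bar height for the authors' fold and the gene body in black. Cdk6 has 3 peaks in both pre-B lists, Ccnd3 has 8 and 10 in the thymocyte lists, and the peak at the Cdkn1b start is in both homo lists only.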

How the data were processed

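Members and gene lists were chosen with earlier results of these data known. Per the labels' protocols, libraries were made from poly(A)-selected RNA. The deposited RNA files hold the authors' raw counts per gene symbol. The 5 entries that name no gene were left out; reads in no gene were 29.8% to 40.1% and ambiguous reads 0.730% to 0.882% of a library's total. Per the submitters' processing notes, mm10 was used with MACS2 2.1.1, HISAT2 2.1.0 and STAR 2.7.0. Which program did which step, and whether counting used strand or removed duplicates, is not given in the labels used here. The deposited peak lists give the authors' score, fold, −log10 p-value and −log10 q-value per region, called on 1 library each, and these values served only to describe regions. Input samples were not analysed here.

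Counts were tested with edgeR 4.0.16 in R 4.3.3 (filterByExpr by group, TMM, robust quasi-likelihood F test, Benjamini-Hochberg over all genes tested, threshold 0.05). Genotypes were compared in fits of the 9 libraries of a stage (12188 genes in pre-pro B, 11411 in pre-B cells), and stages and interactions in a fit of all 18 (12440 genes). The biological coefficient of variation was 8.13%, 16.3% and 12.4%. The calculation was tested on simulated data. All members are described; of each list at most 2 called genes per direction and contrast were named, those with the largest change and a mean of at least 5 CPM in a group. Likeness is Pearson r of log2 CPM (prior count 2), for genes with a mean of at least 10 CPM. Alternatives were RLE factors, cyclic loess with limma 3.58.1, DESeq2 1.42.0, no count filter, library size or sex as covariate, a replicate block, other library sets and each library left out, and for peaks other windows, overlaps and thresholds. Peaks were matched by at least 1 base to RefSeq genes of GRCm38.p6, the assembly of mm10. Promoters came from the RefSeq table of that assembly, which held 10 promoters for 7 members.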

Additional observations from a re-analysis of the deposited data

Results flagged for a closer look

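The effect of the homozygous substitution on Cdkn2c differed between the stages by a test of the difference itself. Homo against WT in pre-B cells minus the same contrast in pre-pro B cells was -0.97 (log2, SE 0.26, adjusted p = 0.0174 by edgeR's quasi-likelihood test). All 3 homo libraries lay above the WT libraries in pre-pro B cells and below them in pre-B cells. Neither contrast was called within its stage, and 14.5% of all genes were called in the test of the difference. Cell cycle genes of the lists were called in the same direction, among them Aurka (-1.54 ± 0.31), Plk1 (-1.35 ± 0.37), E2f2 (-1.25 ± 0.25) and Ccne1 (-1.03 ± 0.23). Cdkn1c was called in the other direction (1.55 ± 0.43). The pattern is thus not particular to Cdkn2c.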

How the results depend on the processing

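Of 1640 values of single members under the alternatives, 1527 kept their direction or stayed uncalled, 80 lost and 33 gained a call, and none reversed a call; 65 changed sign with neither value called. For homo against WT in pre-pro B cells (3 members called), 0 were called with library size and 0 with sex as covariate, and 2 to 4 with a library left out. All genes called there fell from 2730 to 213 and 605 under these covariates. For homo against WT in pre-B cells (4 called), 2 were called with no count filter, 1 with sex and 1 with the replicate block, and 0 to 3 with a library left out. For homo against het in pre-B cells (1 called, 216 genes in all), DESeq2 called 3, no filter 3, library size 4 (1604 genes in all), sex 2, the fit of all 18 libraries 3, the replicate block 0, and leaving out a library 0 to 3. All genes called ran from 1055 to 3456 for homo against WT in pre-B cells (1811 in the reported fit), from 52 to 1604 and from 0 to 223 for homo against het in pre-B and pre-pro B cells (216 and 2), and from 395 to 1055 for the het interaction (703). For het against WT (0 called), library size gave 4 and the fit of all 18 gave 1 in pre-B cells (705 genes in all, from 336 to 3005), and leaving out a library gave 0 to 1 in pre-pro B cells (68 genes in all, from 0 to 1901). The stage interaction gave 1 to 2 for homo and 0 to 1 for het with a library left out, and 1 for het with library size. The cause was not tested. Ikaros peak counts in WT pre-B cells (2) were 1 within 2 kb and 6 within 50 kb, and the homo pre-B count (6) was 2 at a −log10 q of at least 5.

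Replicate numbers were shared between groups, and the labels do not say what a number marks. Same-numbered libraries of 1 genotype at the 2 stages correlated at -0.05 to 0.24 in their deviations, above 0 in 8 of 9 pairs and above 0.1 in 4, and matched in sex in 9 of 9, so whether they share an animal cannot be told. Other same-numbered libraries correlated above 0.1 in 3 of 36 pairs. Since not every pair passed 0.1, the number was not taken to pair libraries. A replicate block of genotype and number left 6, 7 and 9 members called between the stages of WT, het and homo cells, ending the Cdk4 calls of WT and het, and left Cdkn2c as the 1 interaction call. With the number as a replicate block, 4 members were called for homo against WT in pre-pro B cells, adding Ccnd2 (0.34, adjusted p = 0.0141), and 1 in pre-B cells. Depth limits Ccnd1 in pre-B cells most, with 5 to 66 counts a library.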
